A study of Mus musculus with 6 samples.

Results

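The genes described are the subunits of oxidative phosphorylation, chosen by gene symbol alone. Rows were taken whose symbols belong to the nuclear Nduf, Sdh, Uqcr, Cox4 to Cox8 and Atp5 families or to the protein genes of mitochondrial DNA (mt-Nd, mt-Co, mt-Atp and mt-Cytb), and pseudogene rows were left out. This gave 97 of the 34203 rows of the expression matrix, 84 nuclear and 13 mitochondrial, and all 97 had at least 1 transcript count. The nuclear genes comprised 37 of complex I, 4 of complex II, 8 of complex III, 18 of complex IV and 17 of complex V (ATP synthase), and the mitochondrial genes comprised 7 of complex I, 1 of complex III, 3 of complex IV and 2 of complex V. The symbol rule also took in Atp5s with 26 counts and Atp5sl with 44 counts over all cells, which are not subunits of the ATP synthase.

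The cells came from the subventricular zone (SVZ), the stem cell niche beside the lateral ventricle, of Nestin-CreERT2:R26-yfp mice that were 8 to 12 weeks old when tamoxifen was given. In these mice tamoxifen activates a Cre recombinase driven by the Nestin promoter, which switches on yellow fluorescent protein in neural stem cells and hence in their progeny, in the uninjured as in the injured groups. The 3 groups were uninjured mice and mice 1 day (PT D1) or 7 days (PT D7) after a photothrombotic stroke (PT) of the cortex, produced by light after injection of Rose Bengal, and the SVZ was taken on the side of the lesion. Tissue of several mice was pooled, microglia (CD11b+ CD45low) and neural stem and progenitor cells (NSPCs, fluorescent) were sorted into wells, and 2 libraries per group were made by mCEL-Seq2, which counts each captured mRNA 3′ end once through a unique molecular identifier (UMI). No source ties the libraries to separate animals or says which libraries shared a plate, so p-values measure the spread between libraries.

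After the authors' quality control, which kept cells with at most 25% mitochondrial UMIs, 658 cells remained with 1001 to 27321 UMIs each. They were 416 microglia, 222 NSPCs and 20 cells of a mixed cluster that were not used further. The deposited table divides the NSPCs into 50 quiescent type B (qB) stem cells, 45 activated type B (aB) stem cells, 47 transit amplifying type C cells and 80 neuroblasts (NB). Microglia numbered 71 and 84 in the 2 uninjured libraries, 71 and 76 in those of PT D1 and 54 and 60 in those of PT D7, and NSPCs 16 and 59, 19 and 52, and 15 and 61. A list of 8 microglial markers summed to between 14300 and 21900 counts per 1000000 UMIs (CPM) in microglia and to between 852 and 2670 in NSPCs. A list of 8 NSPC markers summed to between 3740 and 5830 in NSPCs and to between 72.3 and 562 in microglia. No marker was at 0 over all cells of a class, but some were at 0 in single libraries, such as P2ry12 in NSPCs and Dcx in microglia. Libraries shared a set of well barcodes, so that 164 of 180 well numbers occurred in more than 1 library, but no cell name occurred more than once.

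Oxidative phosphorylation passes electrons from NADH (complex I) and succinate (complex II) through complexes III and IV to oxygen, and complex V uses the proton gradient built on the way to make ATP. Complex II is encoded wholly in the nucleus, whereas complexes I, III, IV and V combine nuclear subunits, made in the cytosol and imported, with subunits that mitochondria encode and translate themselves. Quiescent adult neural stem cells are known to lean on fatty acid oxidation and glycolysis, and oxidative phosphorylation is known to increase when they become active.

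The promoters of 4 nuclear members are shown because the known regulators of respiratory genes, NRF1, ETS factors and YY1, bind short DNA words. Atp5o, Ndufc1 and Ndufc2 are 3 of the 5 genes with the largest difference between NSPCs and microglia. These 5 were taken from genes with a mean of 50 or more CPM on the scale of the fit, which differs from the unscaled CPM given below. Cox6a1 is 1 gene with several words. Each sequence runs 5′ to 3′ on the gene's strand from 250 bases before to 50 bases after the annotated start (RefSeq, mouse build GRCm38.p6). Capitals mark matches on either strand to a 10-base NRF1 word in which the base at position 6 is free (seen on the printed strand in Cox6a1), to CCGGAAG (ETS family) or to AAGATGGC (YY1).
Atp5o, ATP synthase peripheral stalk, minus strand, chr16:91931581-91931880: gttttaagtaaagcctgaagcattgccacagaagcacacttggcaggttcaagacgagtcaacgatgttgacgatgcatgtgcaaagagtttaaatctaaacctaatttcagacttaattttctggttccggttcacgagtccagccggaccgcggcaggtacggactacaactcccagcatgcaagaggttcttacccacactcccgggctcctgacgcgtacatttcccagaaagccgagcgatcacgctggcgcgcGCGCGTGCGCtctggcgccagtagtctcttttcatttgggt
Cox6a1, complex IV, minus strand, chr5:115348909-115349208: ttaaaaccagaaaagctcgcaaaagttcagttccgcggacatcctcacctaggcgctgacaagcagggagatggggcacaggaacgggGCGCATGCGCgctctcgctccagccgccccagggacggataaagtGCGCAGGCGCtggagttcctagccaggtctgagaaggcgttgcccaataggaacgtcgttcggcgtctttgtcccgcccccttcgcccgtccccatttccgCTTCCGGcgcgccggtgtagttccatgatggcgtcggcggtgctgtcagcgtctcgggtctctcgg
Ndufc1, complex I, minus strand, chr3:51408906-51409205: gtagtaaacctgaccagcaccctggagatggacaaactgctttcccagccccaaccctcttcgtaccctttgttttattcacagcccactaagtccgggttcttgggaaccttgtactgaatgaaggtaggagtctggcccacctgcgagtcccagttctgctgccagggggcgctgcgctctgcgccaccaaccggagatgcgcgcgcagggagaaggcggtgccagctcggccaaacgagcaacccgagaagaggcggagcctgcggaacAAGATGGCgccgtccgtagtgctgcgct
Ndufc2, complex I, plus strand, chr7:97399753-97400052: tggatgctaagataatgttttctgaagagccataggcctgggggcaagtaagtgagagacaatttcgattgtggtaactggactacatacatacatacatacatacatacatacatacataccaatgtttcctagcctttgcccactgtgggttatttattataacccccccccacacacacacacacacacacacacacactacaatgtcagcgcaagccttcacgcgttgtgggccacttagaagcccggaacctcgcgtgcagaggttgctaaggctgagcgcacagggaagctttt
The promoter of Cox6a1 held 2 NRF1 words and 1 ETS word, that of Atp5o 1 NRF1 word and that of Ndufc1 1 YY1 word, whereas none of these letters occurred in this window of Ndufc2. Of the 84 nuclear members 66 had a promoter in the RefSeq table. The NRF1 word was present in 17 of 66 (25.8%), against 5.19% of all 27025 genes with a listed promoter. The ETS word was present in 16 (24.2%, against 9.93%) and the YY1 word in 9 (13.6%, against 3.19%), while the TATA word TATAAA was present in 7 (10.6%, against 15.7%). At least 1 of the NRF1, ETS and YY1 words was present in 36 of 66 members (54.5%), against 16.4% of all these genes. It was present in 21 of 38 members called higher in NSPCs (55.3%) and in 15 of 23 tested and not called (65.2%). For the NRF1 word alone these were 12 of 38 (31.6%) and 5 of 23 (21.7%). These are matches of letters, not measured binding. The 27025 genes were not limited to those expressed in these cells, and the words were not counted in other expressed genes alone.

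The 13 mitochondrial genes held 262057 of the 3990653 UMIs of all cells and the 84 nuclear genes 31049. Among the nuclear members the counts over all cells ran from 1 to 1449 with a median of 282, and the highest were Cox8a (1449), Atp5b (1276), Atp5a1 (1156) and Cox6a1 (1154). Counts of mitochondrial members ran from 205 for mt-Nd6 to 44951 for mt-Atp6. Fewer than 50 UMIs were found for 10 nuclear members, and 8 of these were isoforms known from muscle, testis or other tissues. Microglia and NSPCs together held 662 UMIs of Cox4i1 and 3 of Cox4i2 (the isoform linked to low oxygen), 1079 of Cox6a1 and 16 of the muscle isoform Cox6a2, 313 of Cox7a2 and 2 of the muscle isoform Cox7a1, and 1368 of Cox8a against 3 of Cox8b and 1 of Cox8c. Ndufa4, a subunit now placed in complex IV but counted here with complex I by its symbol, had 418 UMIs and its paralogue Ndufa4l2, counted likewise, had 1. The ring of the ATP synthase is made of an identical peptide encoded by 3 genes, and all were expressed, with 615 UMIs of Atp5g1, 1094 of Atp5g2 and 951 of Atp5g3.

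NSPCs devoted a larger share of their transcripts to oxidative phosphorylation than microglia in all 6 libraries. In microglia the mitochondrial genes held 4.54% and 5.64% of UMIs in the uninjured pair of libraries, 4.95% and 5.71% in the PT D1 pair and 3.42% and 5.81% in the PT D7 pair. In NSPCs they held 7.69% and 7.56%, 9.44% and 8.71%, and 9.26% and 8.71%. The classes did not overlap, and the NSPC value was between 1.34 and 2.71 times the microglial value of the same library (median 1.61). The nuclear genes held 0.541% and 0.458%, 0.449% and 0.492%, and 0.428% and 0.498% of UMIs in microglia. In NSPCs they held 1.17% and 0.996%, 1.31% and 1.25%, and 1.25% and 1.24%. This gap was wider than that of the mitochondrial genes, between 2.16 and 2.93 times (median 2.52), and the number of mitochondrial UMIs per nuclear UMI of the pathway was lower in NSPCs in 6 of 6 libraries, at 0.599 to 0.926 of the microglial value.

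**Figure D1:**
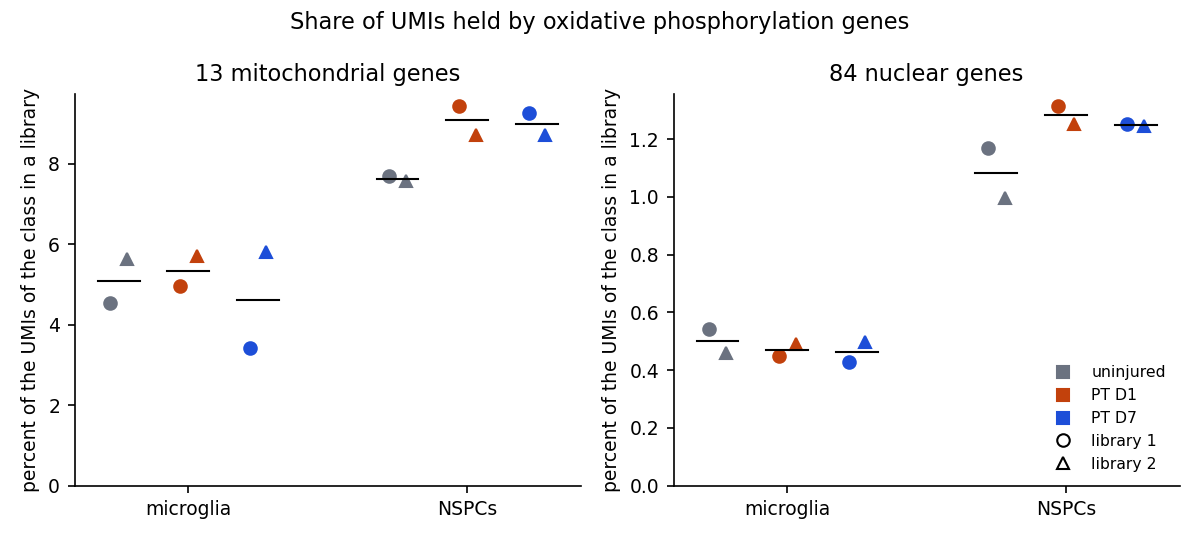
Percent of the UMIs of each class and library held by the 13 mitochondrial genes (left) and the 84 nuclear genes (right) of oxidative phosphorylation, with 1 point per library, coloured by condition. All 6 NSPC libraries lie above all 6 microglial libraries in both panels, and within NSPCs the 4 PT libraries lie above the 2 uninjured ones.

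Before scaling to the bulk of genes, the NSPC share was higher in every complex. The ratios are to be read against all genes tested, whose median log2 fold change was 0.77 with library size alone. Summed over its nuclear members, the NSPC share was higher in 6 of 6 libraries for complex I (2.2 to 3.33 times), complex II (1.64 to 2.2 times), complex III (1.59 to 3.29 times), complex IV (1.94 to 2.83 times) and complex V (2.31 to 3.14 times). The mitochondrial members of complex I had the smallest median ratio (1.32, range 1.09 to 2.27), below those of mt-Cytb of complex III (1.55), complex V (1.8) and complex IV (2.04). At the level of single genes, 64 of the 74 nuclear members and 9 of the 13 mitochondrial members that could be tested had more CPM in NSPCs in all 6 libraries, as had 42.6% of all 7514 genes tested, and none had fewer in all 6, as had 15.8% of all genes. The 10 nuclear members under the low-count filter were given no test.

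A test per gene, with the trimmed mean of M-values (TMM) of edgeR as scaling, asks instead which genes differed relative to the bulk of genes. The classes had been assigned from the same counts after the sort, so these values describe how the classes differ. By the quasi-likelihood test of edgeR, with Benjamini-Hochberg adjustment over 7514 genes, 44 of 74 nuclear members (29.5% of all genes tested were called higher) had an adjusted p under 0.05 with more in NSPCs and 1 (30% of all genes were called lower) with less. In either direction 59.5% of all genes were called. The members called higher were 22 of 36 of complex I, 0 of 4 of complex II, 2 of 8 of complex III, 7 of 11 of complex IV and 13 of 15 of complex V. Median log2 fold changes were 0.63, 0.30, 0.48, 0.73 and 0.81 in this order, against 0.07 for all genes. Library size alone as scaling put the median of all genes at 0.77, and 71 of 74 nuclear members were then higher, with 52.8% of all genes called higher and 19.1% lower. Relative to the median of all genes, the median nuclear member was higher in NSPCs by 0.51 (log2) with TMM and by 0.53 without it. For the median mitochondrial member this difference was -0.23 with TMM and -0.20 without it. Leaving out the first PT D1 library brought the nuclear members called higher to 28 (25.5% of all genes), and with cells of at most 10% mitochondrial UMIs, which leaves 3 libraries with enough NSPCs, 10 of 43 were called higher (20.8% of all genes) and none lower (26% of all genes).

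The 5 called nuclear members with the largest differences, at a mean of 50 or more CPM on the scale of the fit (TMM, per UMIs of the genes tested), came from complexes I, IV and V. Ndufb11 is an accessory subunit in the membrane arm of complex I and had 13.6 to 38.9 CPM in the 6 microglial libraries (median 34.3) and 131 to 207 in the 6 NSPC libraries (median 144). The groups were far apart, and the log2 fold change was 1.53 ± 0.24 (SE; adjusted p = 6.66e-07, edgeR). Atp5o, which ties the catalytic head of the ATP synthase to its stalk, had 44.5 to 66.2 CPM in microglia (median 51.2) and 197 to 264 in NSPCs (median 231), a log2 fold change of 1.41 ± 0.21 (SE; adjusted p = 2.4e-07, edgeR). Its lowest NSPC library lay well above its highest microglial library. The complex I genes shown among the promoters followed. Ndufc1 had 22.3 to 44.1 CPM in microglia (median 30.4) and 112 to 149 in NSPCs (median 134), with a log2 fold change of 1.40 (adjusted p = 4.59e-06, edgeR). Ndufc2 had 71.2 to 97.3 in microglia (median 94.2) and 221 to 682 in NSPCs (median 362), with a log2 fold change of 1.38 (adjusted p = 2.49e-07, edgeR), and its NSPC libraries spread more than those of the other 4 genes. Cox5a, which with Cox4i1 and other nuclear subunits surrounds the core of complex IV, had 38.4 to 55.6 CPM in microglia (median 42.6) and 121 to 272 in NSPCs (median 176), with a log2 fold change of 1.37 (adjusted p = 1.21e-06, edgeR). The 5 genes did not overlap between the classes.

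Of the core and other subunits named here for complexes I, II, III and V, some passed the test and others did not. In complex I, Ndufv1, the NADH-binding subunit, had a median of 26.9 CPM in microglia and 70.7 in NSPCs (log2 fold change 0.87, adjusted p = 0.00777, edgeR), whereas Ndufs1, which holds iron-sulfur clusters next to it, had 44.0 and 67.6 (log2 fold change -0.09, adjusted p = 0.783, edgeR). None of the complex II subunits passed the test. Sdha, the flavoprotein, had medians of 59.3 and 115 CPM (log2 fold change 0.28, adjusted p = 0.286, edgeR), and Sdhb, the iron-sulfur subunit, 46.3 and 104 (0.38, adjusted p = 0.177). The membrane anchors Sdhc and Sdhd had log2 fold changes of 0.33 and -0.33. In complex III the Rieske protein Uqcrfs1, at medians of 48.1 and 149 CPM, was higher (log2 fold change 0.84, adjusted p = 0.00139, edgeR) and so was the hinge protein Uqcrh (0.59, adjusted p = 0.0139), while the core proteins Uqcrc1 (0.36, adjusted p = 0.204) and Uqcrc2 (0.51, adjusted p = 0.0878) did not pass. In complex V the catalytic head subunits were higher, Atp5b at medians of 172 and 533 CPM (log2 fold change 0.94, adjusted p = 2.14e-05, edgeR) and Atp5a1 at 166 and 467 (0.63, adjusted p = 0.00323).

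Cox7a2l was the 1 nuclear member called lower. It is best known as SCAF1, a factor that joins complexes III and IV into supercomplexes. Its libraries overlapped, at 84.8 to 151 CPM in microglia (median 122) and 109 to 155 in NSPCs (median 130), and the log2 fold change was -0.57 ± 0.20 (SE; adjusted p = 0.0125, edgeR) with TMM and 0.14 with library size alone, so its direction depended on the scaling.

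**Figure D2:**
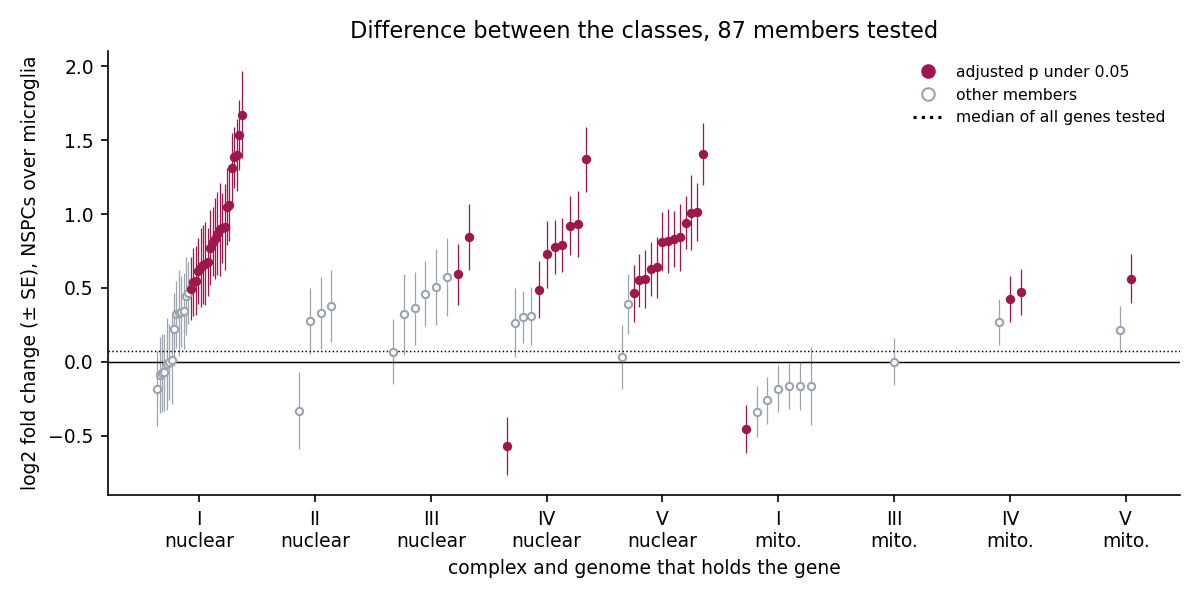
Log2 fold change of NSPCs against microglia (edgeR, TMM) for each of the 87 members tested, grouped by complex and genome, with called genes in colour and the dotted line at the median of all genes (0.07). Most nuclear members lie above the line, and the 7 mitochondrial members of complex I lie below 0.

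Among the mitochondrial genes the estimates differed in sign between complexes, and the difference between complexes was not tested. All 7 mt-Nd genes had log2 fold changes below 0 (-0.45 to -0.16) with TMM, whereas with library size alone 11 of the 13 mitochondrial genes were called higher and none lower. Under that scaling 52.8% of all genes were called higher and 19.1% lower, and the median log2 fold change was 0.57 for mitochondrial members and 0.77 for all genes. On the TMM scale mt-Cytb had 0.00, the 3 mt-Co genes 0.27 to 0.47 and the 2 mt-Atp genes 0.22 to 0.56. Called higher in NSPCs were mt-Atp8 (0.56 ± 0.16 SE, adjusted p = 0.00313, edgeR), mt-Co3 (0.47, adjusted p = 0.00936) and mt-Co1 (0.43, adjusted p = 0.0165), 3 of 13 genes (29.5% of all genes). Of the 13 genes mt-Nd2 alone was called lower, beside 30% of all genes (-0.45 ± 0.16 SE, adjusted p = 0.016, edgeR), and its direction turned to 0.28 with library size alone. Without the first PT D1 library 1 gene was called higher and 1 lower, without the second PT D1 library 2 were called higher and none lower, and with cells of at most 10% mitochondrial UMIs 0 of 12 were called. That limit selects cells on the mitochondrial UMIs themselves, so it cannot decide whether these genes differ. The levels behind the log2 fold changes were 4400 to 6310 CPM of mt-Co1 in microglia (median 5250) and 8970 to 13800 in NSPCs (median 12100), with no overlap. For mt-Nd2 they were 3010 to 5390 in microglia (median 4730) and 5000 to 6940 in NSPCs (median 5160), with overlap.

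A measure that needs no scaling is the make-up of the mitochondrial mRNA pool, each gene's share of the UMIs of the 13 genes. These genes are transcribed from the same circular genome as long precursors that are then cut into mRNAs. Over all cells mt-Atp6 held 17.2% of the 13 genes' UMIs, mt-Cytb 13.1%, mt-Co2 13%, mt-Co1 12.2%, mt-Nd4 11.9%, mt-Nd2 7.54%, mt-Nd1 7.52%, mt-Nd5 5.61%, mt-Co3 5.53%, mt-Atp8 2.56%, mt-Nd3 2.46%, mt-Nd4l 1.33% and mt-Nd6, the only gene here on the light strand, 0.0782%. The open reading frames of mt-Atp8 and mt-Atp6 overlap by 43 bases, those of mt-Nd4l and mt-Nd4 by 7, those of mt-Atp6 and mt-Co3 by 1 and those of mt-Nd5 and mt-Nd6, on opposite strands, by 14, and the first pairs named stay on shared mRNAs, so counts of such neighbours may not be told apart by a 3′ tag. In microglia the 7 mt-Nd genes held 41.6% and 43.6% of the pool in the uninjured libraries, 41.5% and 40.5% in the PT D1 pair and 40.4% and 37.6% in the PT D7 pair. In NSPCs they held 34.1% and 35.6%, 31.6% and 30.6%, and 33.8% and 31.3%. Every NSPC library lay below every microglial library.

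Gene by gene, the share of the pool was larger in NSPCs in 6 of 6 libraries for mt-Co1 (median 11% in microglia and 13.9% in NSPCs), mt-Co3 (4.65% and 6.23%), mt-Atp6 (16.1% and 17.8%) and mt-Atp8 (2.05% and 2.89%), and in 5 of 6 for mt-Co2 (12.1% and 14.0%). It was smaller in 6 of 6 for mt-Nd1 (8.2% and 6.79%), mt-Nd2 (9.12% and 6.28%), mt-Nd3 (2.67% and 2.25%), mt-Nd4 (13.1% and 11.1%) and mt-Nd5 (5.82% and 4.77%). The pool of NSPCs was therefore weighted towards mRNAs of cytochrome c oxidase and ATP synthase and that of microglia towards mRNAs of complex I. The remaining genes were mixed, with mt-Nd4l higher in NSPCs in 1 of 6 libraries, mt-Cytb in 2 and mt-Nd6 in 4.

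**Figure D3:**
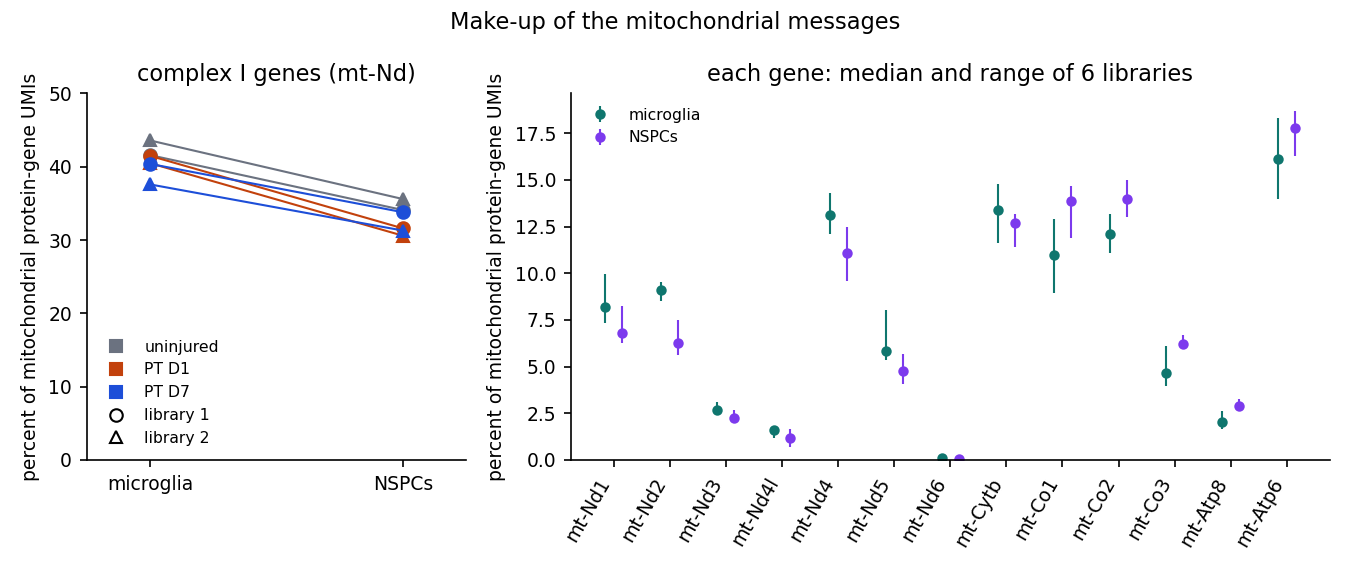
Left, percent of the UMIs of the 13 mitochondrial protein genes held by the 7 mt-Nd genes, per library, with lines joining the microglia and NSPCs of the same library. Right, percent held by each gene, as the median with the range over 6 libraries. The mt-Nd share lies between 37.6% and 43.6% in microglia and between 30.6% and 35.6% in NSPCs.

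Within NSPCs, aB cells and type C cells devoted more transcripts to the pathway than qB cells and neuroblasts. Because the subtypes were defined from the same counts, these levels are given without a test. With all cells of a subtype pooled, nuclear members held 0.908% of UMIs in qB, 1.47% in aB, 1.37% in C and 0.895% in NB cells. In libraries with at least 5 cells of the subtype the ranges were 0.845% to 0.94% (3 libraries), 1.46% to 1.59% (3), 1.32% to 1.44% (4) and 0.803% to 1.09% (5). The 3 aB libraries were all PT libraries, since each uninjured library held 4 aB cells, whereas the other ranges include uninjured cells. In uninjured cells alone, pooled, the nuclear shares were 0.836%, 1.34%, 1.32% and 0.821% in the same order. The aB cells and type C cells were next to each other in this order and differed by less (1.1 to 1.13 times in 2 libraries) than aB from qB cells (1.55 to 1.72 times in 2 libraries) or type C cells from neuroblasts (1.34 to 1.64 times in 3 libraries). The ranges of qB cells and neuroblasts overlapped. Mitochondrial members held 7.59%, 9.71%, 8.62% and 7.44% of UMIs in the order given, with library ranges of 6.96% to 7.23%, 9.66% to 10.4%, 8.09% to 9.77% and 7.07% to 7.97%. With cells pooled the order was that of the nuclear genes, with smaller gaps, and the ranges of aB and type C cells overlapped, as did those of qB cells and neuroblasts. Within libraries neuroblasts were at or above qB cells in 3 of 3 (1.0 to 1.1 times).

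The complexes differed in how far they followed this order. In qB, aB, C and NB cells, nuclear complex I summed to 2960, 4690, 4200 and 2690 CPM, complex IV to 2150, 3580, 3380 and 2180, and complex V to 2800, 5010, 4740 and 3090. Complex III summed to 817, 949, 1020 and 739 CPM, and complex II to 359, 452, 382 and 239. Complexes I, II, IV and V were highest in aB cells and complex III in type C cells, and complex II was about as abundant in type C cells as in qB cells. Of the 74 nuclear members with at least 50 UMIs in NSPCs, 42 were highest in aB cells, 23 in type C cells, 8 in qB cells and 1 in neuroblasts, while 36 were lowest in neuroblasts and 33 in qB cells. The ratio of highest to lowest subtype had a median of 1.93 for nuclear and 1.32 for mitochondrial members, of which 10 of 13 were highest in aB cells. Atp5e, the small subunit of the ATP synthase stalk, had 89.7, 300, 258 and 102 CPM in the order above, and Cox5a 113, 279, 240 and 115. Some members departed from the order. Uqcrc2 was lowest in aB cells (96.3, 57.7, 70.8 and 89.1 CPM) and Cox7a2l was highest in neuroblasts (83, 144, 93.6 and 172), whereas Uqcrfs1 was nearly even (159, 130, 142 and 133).

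Microglia fell into clusters 0 to 4 in the deposited table, and these also differed. Cells of cluster 2 held 2.88% mitochondrial and 0.272% nuclear UMIs of the pathway, against 5.44% and 0.52% in cluster 0, and were lower in each of the 4 libraries with at least 5 cells of both, at 0.468 to 0.708 and 0.387 to 0.857 of the cluster 0 value. Cells of cluster 4 held 0.617% nuclear UMIs, and were 1.16 to 1.35 times cluster 0 in 3 of 3 libraries, while their mitochondrial share was 0.825 to 1.41 times that of cluster 0 and above it in 2 of 3. With cells pooled, the mt-Nd share of the mitochondrial pool was 42.2%, 41.7%, 39.7%, 40.0% and 38.6% in clusters 0 to 4 and 33.9%, 30.8%, 32.2% and 34.7% in qB, aB, C and NB cells. Values of single libraries overlapped, since cluster 2 reached down to 35.6% and cluster 4 to 36.2%, and qB cells up to 38.2% and neuroblasts to 36.5%.

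**Figure D4:**
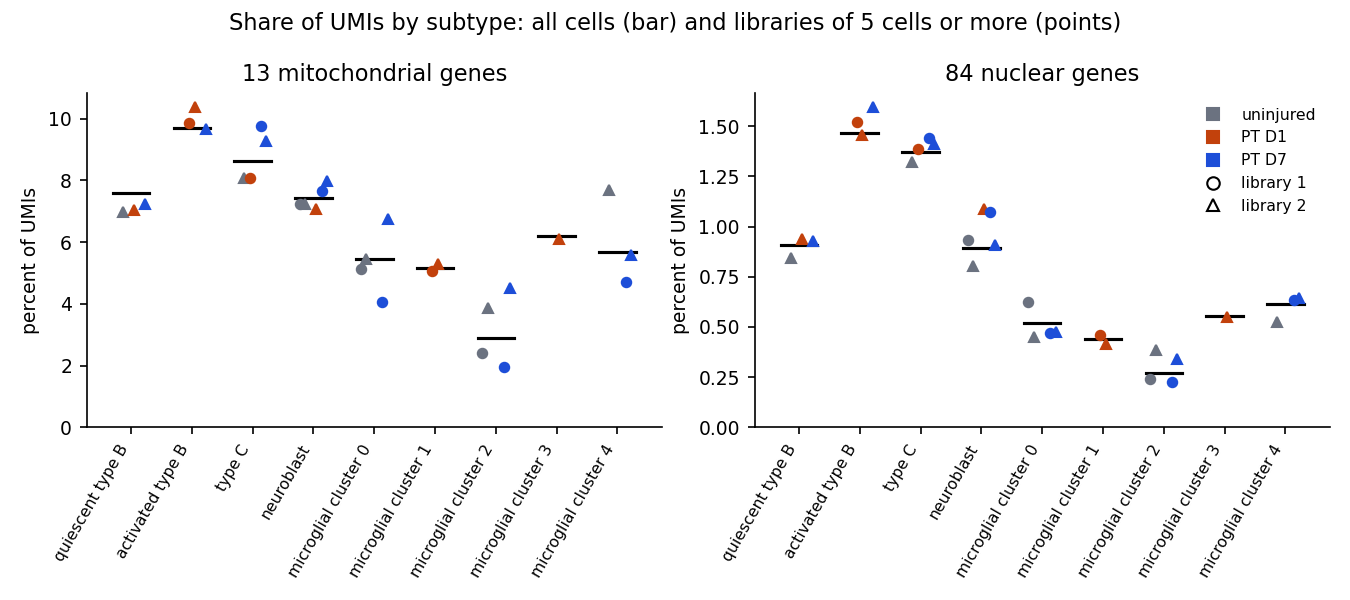
Percent of UMIs held by mitochondrial (left) and nuclear (right) members in each NSPC subtype and microglial cluster, with a bar for all cells pooled and a point for each library with 5 cells or more. Nuclear shares are highest in aB cells (1.47%) and type C cells (1.37%) and lowest in microglial cluster 2 (0.272%).

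After stroke, the question was whether the pathway changed in either class. In microglia no member was called in any of the 3 comparisons by edgeR's quasi-likelihood test after Benjamini-Hochberg adjustment, for 71 nuclear and 13 mitochondrial members tested. Of all 4846 genes tested, 5.7% were called at PT D1 against uninjured, 0.165% at PT D7 against uninjured and 3.8% at PT D7 against PT D1. At an unadjusted p under 0.05 there were 5 nuclear members at PT D1, 1 at PT D7 and 2 in the contrast of the PT groups, and no mitochondrial member in any comparison, beside 22%, 7.33% and 18.7% of all genes. DESeq2 called no member in any of the 3 comparisons. Median log2 fold changes were 0.05, 0.04 and 0.06 for nuclear members and 0.14, 0.08 and -0.14 for mitochondrial members with TMM, and -0.08, -0.19 and -0.05 and 0.01, -0.14 and -0.21 with library size alone, which put the median of all genes at -0.09, -0.25 and -0.11. The shares of UMIs overlapped between groups, and a list of 8 choroid plexus genes summed to 10700 and 4710 CPM in uninjured microglia, 603 and 469 in the PT D1 pair, and 631 and 199 in the PT D7 pair. Whether this bears on the values was not tested.

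Among members at a mean of 50 or more CPM on the scale of the fit, those with the largest estimates at PT D1 were Ndufa4, with 63.1 and 44.9 CPM in uninjured microglia, 69.5 and 125 in the PT D1 pair, and 37.3 and 67.5 in the PT D7 pair, and Uqcrfs1, with 27.5 and 44.9, 66.7 and 51.4, and 61.0 and 43.9. For both genes the PT D1 libraries lay above the uninjured ones, and their log2 fold changes were 0.99 and 0.79. Among genes with at least 50 UMIs in microglia, 18.1% of nuclear members and 21.4% of all genes lay above in this way. Below both uninjured libraries at PT D1 lay 19.4% of these members and 29.2% of all genes. Under a mean of 50 CPM, Ndufa13 (-1.32), Uqcr11 (-1.29) and Atp5k (-1.19) had the lowest log2 fold changes at PT D1, none called. At 50 or more CPM the lowest estimates belonged to Ndufb4, a membrane-arm subunit of complex I, with 63.1 and 53.4, 33.4 and 35.7, and 64.4 and 77.6 CPM (log2 fold change -0.62), and to Uqcrq, a small subunit of complex III, with 102 and 74.8, 47.3 and 58.1, and 47.5 and 60.7 (-0.60). Ndufb4 was lower at PT D1 than in either other group, and its estimate for PT D7 against PT D1 was 1.12. Among members of this level at PT D7 the largest estimates were those of Uqcrfs1 (0.73) and Atp5g2 (0.63) and the smallest those of Uqcrh (-0.51) and Uqcrq (-0.48). Between the PT groups, Ndufa2 (0.69) stood beside Ndufb4 at the upper end, and Ndufa4 (-0.82) and Ndufa12 (-0.63) at the lower end.

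Ndufa13 (GRIM-19, a complex I subunit also known as a binding partner of STAT3) is given because a call on it appeared under other settings, so it was chosen after its values were seen. It had 82.4 and 61.9 CPM in uninjured microglia, 30.6 and 22.3 in the PT D1 pair, and 50.9 and 20.3 in the PT D7 pair, and all PT libraries lay below both uninjured libraries. Of all genes with at least 50 UMIs in microglia, 29.2% lay below in this way at PT D1 and 32.7% at PT D7. The log2 fold change of Ndufa13 at PT D1 was -1.32. Deviations of microglial libraries with the same number were only weakly correlated (0.193 to 0.262). With the library number as a block Ndufa13 alone of the members was called (adjusted p = 0.0225, edgeR), with 13.2% of all genes called. The block rests on PT D7 library numbers inferred from the cell names.

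In NSPCs 1 member was called between conditions, a rate close to that of all genes. At PT D1 against uninjured, Ndufc2 was called higher, 1 of 74 nuclear members and 0 of 13 mitochondrial members, beside 1.04% of all 4907 genes called higher and 2.12% called in either direction. At PT D7 against uninjured no member was called (0.0815% of all genes), nor at PT D7 against PT D1 (0.632%). At an unadjusted p under 0.05 there were 6 nuclear and 4 mitochondrial members at PT D1, 2 nuclear and 0 mitochondrial members at PT D7, and 2 nuclear and 1 mitochondrial member between the PT groups, beside 14.8%, 4.69% and 10.8% of all genes. DESeq2 called no member in any of these comparisons, Ndufc2 included (adjusted p = 0.0698). Median log2 fold changes were 0.18 for PT D1, 0.11 for PT D7 and 0.04 between them for nuclear members and 0.09, 0.20 and -0.05 for mitochondrial members.

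Ndufc2, an accessory subunit needed for assembly of the complex I membrane arm, had 301 and 221 CPM in uninjured NSPCs, 682 and 560 in the PT D1 pair, and 291 and 422 in the PT D7 pair. Both PT D1 libraries lay above every other library, and the log2 fold change was 1.22 ± 0.25 (SE; adjusted p = 0.00903, edgeR). In microglia it had 93.3 and 94.0, 97.3 and 96.0, and 71.2 and 94.5 CPM, with the PT D1 pair less than 5 CPM above the uninjured pair. The difference between the classes in the PT D1 effect was 1.12 (unadjusted p = 0.0158, adjusted p = 0.56, edgeR), and no member was called in this test at PT D1 (0.24% of all 7514 genes called) or at PT D7 (0.0399%), by edgeR or by DESeq2. At an unadjusted p under 0.05 there were 2 nuclear members at PT D1, Ndufc2 and Ndufa13, and 0 at PT D7, beside 6.84% and 3.89% of all genes.

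The level of Ndufc2 depended on the subtype. Pooled over libraries it was 315 CPM in qB, 730 in aB, 374 in C and 165 in NB cells. The aB cells made up 25% and 6.78% of uninjured NSPCs, 31.6% and 36.5% in the PT D1 pair, and 0% and 19.7% in the PT D7 pair. Without them Ndufc2 was at 224 and 198 CPM in uninjured NSPCs, 497 and 300 in the PT D1 pair, and 291 and 325 in the PT D7 pair, and the call was lost (log2 fold change 0.77, adjusted p = 0.211, edgeR). It was also lost without the second uninjured library (log2 fold change 1.00, adjusted p = 0.166, edgeR). Within subtypes, from uninjured to PT D1 to PT D7, Ndufc2 was at 261, 368 and 328 CPM in qB cells, at 405, 874 and 749 in aB cells, at 264, 558 and 386 in C cells and at 137, 160 and 220 in NB cells. All 4 subtypes were above their uninjured value at both times, with few cells behind each (8 aB cells in the uninjured group). As these are pooled sums, no test was made.

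Ndufc2 lies on chromosome 7 (GRCm39, chr7:97049210-97057022, plus strand) next to Thrsp (chr7:97062139-97066937, minus strand), a regulator of lipid synthesis and one of the markers of aB cells, and the 3′ ends face each other across 5116 bases. Thrsp had 68.9 and 48.3 CPM in uninjured NSPCs, 362 and 264 in the PT D1 pair, and 0 and 134 in the PT D7 pair. The 52 NSPCs with a Thrsp UMI had 707 CPM of Ndufc2 and the 170 others 269. Among aB cells the values were 802 and 481, and among the other NSPCs 477 and 249. Ndufc2 was thus higher in the pooled cells with a Thrsp UMI in both groups of cells. Both groups were pooled over conditions, and the other NSPCs also over subtypes, which differed in Ndufc2. Of the 19 other NSPCs with a Thrsp UMI, 11 were qB cells. The part of condition and subtype in this difference was not tested. Whether reads of one gene were counted for the other was not tested either.

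**Figure D5:**
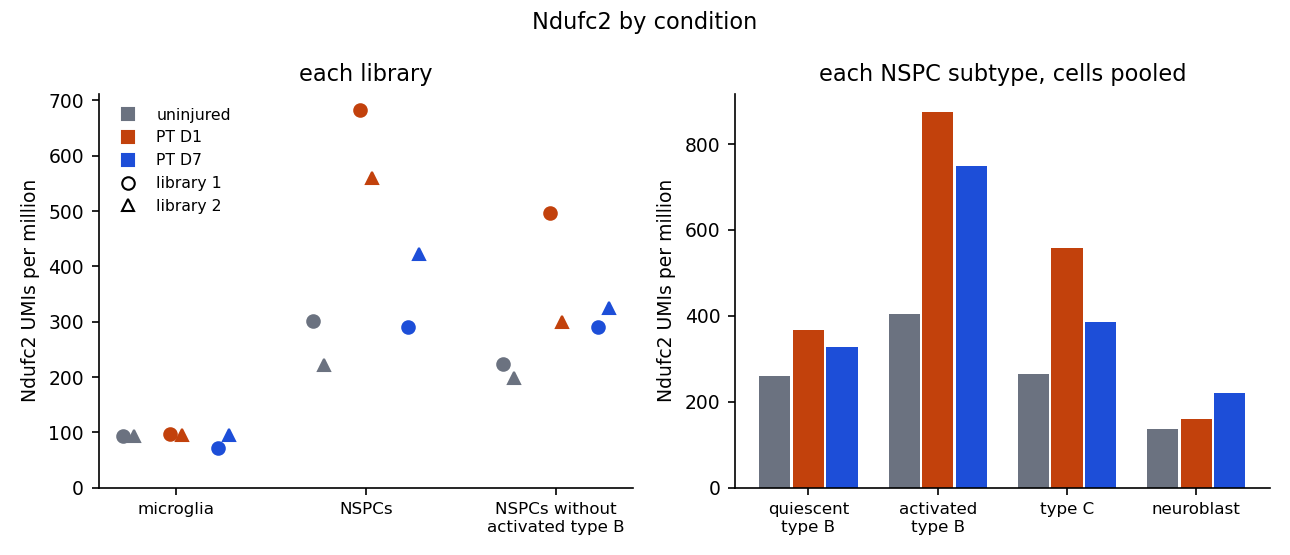
Left, Ndufc2 CPM in each library for microglia, NSPCs and NSPCs without aB cells. Right, its pooled level in the 4 NSPC subtypes by condition, where aB cells reach 874 at PT D1 against 405 in the uninjured group.

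No other NSPC member passed the adjusted test. Atp5a1, the alpha subunit of the catalytic head, had 353 and 302 CPM in uninjured NSPCs, 585 and 551 in the PT D1 pair, and 449 and 485 in the PT D7 pair, so that all PT libraries lay above both uninjured ones. Its log2 fold changes were 0.74 at PT D1 (adjusted p = 0.0984, edgeR) and 0.49 at PT D7. Ndufv3, an accessory subunit at the NADH-oxidizing tip of complex I, had 103 and 60.3, 20.9 and 29.6, and 60.6 and 73.3, with the PT D1 libraries lowest (log2 fold change -1.49 at PT D1 and 1.38 between the PT groups). Atp5j2, a small membrane subunit of the ATP synthase, had 207 and 129, 69.6 and 104, and 182 and 129 CPM, with the PT D1 libraries again lowest (log2 fold change -0.83 at PT D1). At PT D7, among members at this mean level on the scale of the fit, the largest estimates were those of Ndufb7 (0.79) and Ndufa9 (0.74) and the smallest those of Sdhc (-0.79) and Ndufv1 (-0.61). Between the PT groups Ndufb10 (0.71) was second to Ndufv3, and Ndufc2 (-0.70) and Sdhd (-0.63) were lowest. Among mitochondrial genes, mt-Nd1 had 4837 and 5116 CPM in uninjured NSPCs, 7782 and 6722 in the PT D1 pair, and 6000 and 5938 in the PT D7 pair, with the PT D1 libraries highest. For mt-Nd4l, with 1265 and 1060, 981 and 607, and 1127 and 1031 CPM, they were lowest. Their log2 fold changes at PT D1 were 0.47 and -0.64, and neither passed the adjusted test.

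Before TMM scaling, the shares of both gene groups in NSPCs were higher in both PT groups than in both uninjured libraries, as given above, although 2 libraries against 2 cannot give an exact permutation p under 0.33. Of 74 nuclear members with at least 50 UMIs in NSPCs, 26 lay above both uninjured libraries in both PT D1 libraries (35.1%, against 26.1% of all 4936 such genes) and 8 below (10.8%, against 18.5%). At PT D7 the numbers were 23 above (31.1%, against 19.6%) and 4 below (5.41%, against 14.4%). Of the 13 mitochondrial members 7 lay above (53.8%) and 1 below (7.69%) at PT D1. At PT D7 9 lay above (69.2%) and 2 below (15.4%), to be read against the same shares of all genes. The share of aB cells among NSPCs was 10.7% in the uninjured group, 35.2% at PT D1 and 15.8% at PT D7. Within qB cells the nuclear share was 0.836%, 0.932% and 0.986% in this order, within aB cells 1.34%, 1.48% and 1.59%, within type C cells 1.32%, 1.36% and 1.42%, and within neuroblasts 0.821%, 1.06% and 0.932%. All 4 subtypes were above their uninjured value at both times, also in the mitochondrial share, with few cells behind each pooled value. At PT D1 the mitochondrial share went from 8.63% to 10.2% in aB cells, from 7.96% to 8.11% in type C cells and from 7.23% to 7.32% in neuroblasts. In qB cells it was 6.95%, 8.0% and 8.03%, whereas the 3 libraries with at least 5 qB cells ran from 6.96% to 7.23%. No test was made within subtypes. With the 4 subtypes weighted equally, the nuclear share was 1.08%, 1.21% and 1.23% and the mitochondrial share 7.69%, 8.41% and 8.75%, against 1.03%, 1.27% and 1.25% and 7.58%, 8.93% and 8.81% for pooled NSPCs. The choroid plexus list summed to 1530 and 3850 CPM in uninjured NSPCs, 76.6 and 47.4 in the PT D1 pair, and 97.0 and 63.2 in the PT D7 pair, and its part in these shares was not tested.

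Genes that act around the respiratory chain were followed as lists, to be read against the 29.5% of all genes called higher in NSPCs and the 30% called lower. In the comparison of NSPCs with microglia, with TMM, 4 of 6 further subunits and regulators of the complexes were higher and none lower, with Atpif1, the inhibitor of the ATP synthase, at a log2 fold change of 1.30. Of assembly factors 7 of 20 were higher and none lower, led by Cmc2 (2.29). Of regulators of mitochondrial gene expression and biogenesis 3 of 9 were higher and none lower, namely the coactivator Ppargc1a (1.51), the mtDNA packaging factor Tfam (1.00) and the transcription factor Nrf1 (0.89). Their counts were low, with 11 UMIs of Ppargc1a in microglia and 29 in NSPCs, 37 and 85 of Tfam, and 33 and 73 of Nrf1. Tfam was at 0 CPM in its lowest NSPC library. In the tricarboxylic acid cycle and pyruvate dehydrogenase 7 of 17 were higher and none lower, such as Idh3a (1.03) and Sucla2 (1.13). Glycolysis was divided, with 4 of 16 higher, such as Aldoc (3.20), and 7 lower, such as Hk2 (-3.24) and Pfkl (-2.41). Aldoc is also a marker of qB cells. It had 2434 CPM in qB, 69.7 in aB, 40.5 in C and 54.3 in NB cells, and 37.7 in microglia. Of carriers and porins of the inner and outer membrane 3 of 8 were higher, among them the ATP/ADP carrier Slc25a4 (1.32), and 2 lower, with the uncoupling protein homologue Ucp2 at -3.09.

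Between conditions, genes of only 2 of these lists were called, and only in microglia. Ldha, which makes lactate from pyruvate, was higher at PT D1 than in uninjured microglia (log2 fold change 1.24, adjusted p = 0.0394, edgeR), 1 of 14 genes of glycolysis, beside 5.7% of all genes called. Ucp2, 1 of 8 carriers and porins, was higher at PT D1 (1.25, adjusted p = 0.0181, edgeR) and lower at PT D7 than at PT D1 (-1.50, adjusted p = 0.00991), beside 3.8% of all genes called. No assembly factor, regulator, tricarboxylic acid cycle gene or further subunit was called in microglia or NSPCs in any comparison of conditions.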

How the data were processed

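SVZ microglia and NSPCs were sequenced by mCEL-Seq2 in 6 libraries. The deposited counts are whole UMIs per gene and cell, which the authors demultiplexed with bcl2fastq 2.17.1.14 and mapped to GRCm39, without normalization; the aligner, the counter and the annotation were not given in the sources used here. Cell classes and subtypes come from the authors' table, of which 15 columns were not used. The members and lists were chosen with earlier results of these data known.

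UMIs were summed per library and class. In edgeR 4.0.16 (R 4.3.3), with filterByExpr, TMM and the quasi-likelihood test, the 3 conditions were fitted together in each class, and NSPCs were compared with microglia with library as a block. The p-values were adjusted over all genes tested, and an adjusted p under 0.05 was a call. The script was tested on simulated data. Levels are CPM (counts per 1000000 UMIs of the cells named), without TMM, and a tag per molecule needs no length correction.

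Named were the 13 mitochondrial genes, nuclear members called between conditions, the 2 largest and 2 smallest estimates of each comparison and the 5 largest called class differences in each direction at a mean of 50 or more CPM on the scale of the fit (TMM, per UMIs of the genes tested), core subunits and isoforms, and up to 3 genes of each other list. Deviations of same-numbered libraries correlated at 0.22, 0.193 and 0.262 in microglia and at 0.095, -0.0581 and -0.041 in NSPCs. These correlations are weak and do not establish a pairing. Between conditions the library number was a block in an alternative only. In both PT D7 libraries the field of the cell names that holds the library number reads 1, so their numbers were inferred from another digit, which no source ties to them, and these correlations and the block rest on this. Alternatives were DESeq2 1.42.0, no TMM, other filters, mitochondrial genes left out of totals, thinning, fewer cells or subtypes, each library left out and the block.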

Additional observations from a re-analysis of the deposited data

How the results depend on the processing

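The nuclear members called in microglia at PT D1 numbered 0 to 1 with each library left out, and 1 with the library number as a block (Ndufa13), with cells of at most 10% mitochondrial UMIs (Atp5g2, log2 fold change 0.96, adjusted p = 0.0487, edgeR) and without clusters 2 and 3 (Ndufa13, -1.54, adjusted p = 0.0313); without the first PT D1 library it was Ndufa4 (1.32, adjusted p = 0.0213). In NSPCs at PT D1 the number was 0 with DESeq2, with cells thinned to 1000 UMIs (Ndufc2 1.33, adjusted p = 0.234) and without aB cells, and 0 to 1 with each library left out. Ndufc2 stayed above 0 in all 15 alternatives (0.77 to 1.35), lost its call in 4 of them, and kept it with the replicate block (1.22, adjusted p = 0.0207). Mitochondrial members called there numbered 0 to 1 with each library left out, mt-Nd4l being called without the first PT D1 library (-0.94, adjusted p = 0.033). The block changed no other call between conditions. For NSPCs against microglia, the nuclear members called in either direction, 45, became 71 without TMM, 21 of 29 with at least 10 UMIs in every library, 10 of 43 with cells of at most 10% mitochondrial UMIs, 16 of 34 after thinning, and 29 to 42 with each library left out, and the mitochondrial members, 4, became 11 without TMM, 0 of 12 with the 10% limit and 2 to 6 with each library left out. Fewer members were tested under the filter, the limit and the thinning. DESeq2 called 31 of 74 nuclear members higher and 1 lower, beside 23.5% and 26.3% of all genes. With no filter beyond 1 UMI, 32 of 84 were higher and 1 lower, beside 11.2% and 15.2%. Under both settings 3 mitochondrial members were higher and 1 lower. The limit selects cells on mitochondrial UMIs, the quantity measured, so mitochondrial calls and shares under it cannot decide whether groups differ. Without the library block 44 nuclear and 4 mitochondrial members were called. Direction turned for Cox7a2l (0.14) and mt-Nd2 (0.28) without TMM, and for Cox7c (-0.10) with the 10% limit; beyond the change of scaling the cause was not tested. With that limit the mitochondrial share was 4.04% in microglia and 5.68% in NSPCs and the nuclear share 0.405% and 0.856%; in qB, aB, C and NB cells the mitochondrial share was 5.89%, 5.95%, 6.1% and 5.35%, and the nuclear share 1.4% in aB, 0.917% in C and 0.728% in NB cells, with 3 aB cells and 1 type C cell left. With mitochondrial genes out of the total, the nuclear shares were 1.03%, 1.72%, 1.58% and 1.02%. Comparisons between conditions in NSPCs, and of the PT effects between classes, could not be fitted with the 10% limit, since 3 libraries held fewer than 10 such NSPCs. With 2 libraries a group and 15 to 61 NSPCs in each, small changes of nuclear members, whose median standard error was 0.34 (log2) in NSPCs at PT D1, were not detectable.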

Other observations

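The ribosomal RNA mt-Rnr2, which lies outside the protein genes described, was captured as well. It had 33200 and 24700 CPM in uninjured microglia, 24000 and 19700 in the PT D1 pair of libraries, and 14900 and 20900 in the PT D7 pair. In NSPCs it had 46000 and 39600, 41200 and 24100, and 29500 and 30000. The NSPC value was above the microglial value of the same library in 6 of 6 libraries. In NSPCs both PT D7 libraries lay below both uninjured ones, the opposite order to the share of the mitochondrial protein genes. In microglia the libraries of both PT groups lay below both uninjured ones, while the shares of the protein genes overlapped. Of all genes with at least 50 UMIs in the class, 14.4% lay below at PT D7 in NSPCs. In microglia 29.2% did so at PT D1 and 32.7% at PT D7. The other ribosomal RNA, mt-Rnr1, had the same orders, and no test was made of these differences.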
